A study of Mus musculus with 4 samples.

Results

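Genes for the proteins of the mitochondrial ribosome were examined in the RNA-Seq libraries of lung tumor-infiltrating CD4+ T cells from mice with and without a T cell deletion of the activin-A receptor ALK4. The genes were taken as every symbol made of Mrpl or Mrps, a number and at most 1 letter from a to c, which gave 78 of the 25239 symbols listed. Of these, 49 were Mrpl symbols, named for the large subunit, and 29 were Mrps symbols, named for the small subunit. All 78 had enough counts to be tested, among 13919 genes in all.

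The labels name 2 WT and 2 CD4/ALK4-KO libraries, all 4 of them from male C57BL/6 mice 8 to 10 weeks old that received LLC-OVA, which are Lewis lung carcinoma cells expressing ovalbumin, into a vein. CD4/ALK4-KO mice carried CD4CreERT2+/- and Acvr1bfl/fl, so that tamoxifen-activated Cre under the mouse Cd4 promoter deletes the loxP-flanked part of Acvr1b, the gene of ALK4. Tamoxifen was injected at 75 mg/kg per dose on 5 days, with the tumor cells given on the last of them. WT mice were littermates, and the methods do not say separately whether they received tamoxifen. The labels give 18 to 22 days until the lung tumors were excised, after which CD4+ T cells were taken from the leukocyte layer of a Percoll gradient. Whether a library came from 1 mouse or from several was not stated, so p-values measure the spread between these samples, which may be partly technical.

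The mitochondrial ribosome translates the few proteins that are encoded in mitochondrial DNA, which are core subunits of the oxidative phosphorylation complexes. Its rRNAs come from mitochondrial DNA, whereas all of its proteins are encoded in the nucleus, made on cytosolic ribosomes and imported. Many of these proteins descend from bacterial ribosomal proteins and others were added in the mitochondrial lineage. In T cells, mitochondrial translation is known to increase with activation and growth.

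The counts per library summed to 13869889 and 13943237 for WT and to 11959487 and 11823908 for CD4/ALK4-KO. The targeted gene did not separate the genotypes, with Acvr1b at 426 and 342 counts in WT and 322 and 445 in CD4/ALK4-KO (adjusted p = 0.66, edgeR), so the libraries are called here by their labels. All 12 T cell markers were listed above 0 in every library, and all 12 were higher in CD4/ALK4-KO. The markers summed to 470 and 438 CPM (depth-scaled counts, on library sizes adjusted by TMM) in WT and to 2540 and 2390 CPM in CD4/ALK4-KO. The 2 CD8 T cell markers, at 47.8 and 43.6 CPM in WT and 310 and 192 CPM in CD4/ALK4-KO, and the 6 B cell markers, at 62 and 52.6 CPM and 174 and 338 CPM, were all higher as well. The 6 fibroblast markers summed to 6360 and 6820 CPM against 4190 and 3580 CPM, with 4 of 6 lower. Markers of adherent or contractile cells (9) summed to 2870 and 2720 CPM against 3110 and 3820 CPM, with 4 lower and 1 higher. Endothelial markers (5) summed to 45 and 65.5 CPM against 122 and 130 CPM, with 1 higher. Neutrophil markers (7) summed to 899 and 1380 CPM against 1400 and 919 CPM, with 2 higher. The 7 epithelial markers summed to 938 to 953 CPM against 488 to 622 CPM, with 4 lower and 2 higher, and the 9 macrophage markers to 6250 to 7120 CPM against 5770 to 6050 CPM, with 1 higher and 0 lower. The 9 cell cycle genes summed to 1690 and 1740 CPM against 1240 and 994 CPM, with 4 lower. No marker of these lists was at 0 in either genotype, and their part in the results that follow was not tested. In bulk libraries, fewer cells of a type and less RNA per cell cannot be told apart.

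Mitochondrial ribosomal protein genes took a smaller share of the counts in CD4/ALK4-KO than in WT. Summed over the 78 genes, the level was 3993 and 3913 CPM in WT and 2814 and 2785 CPM in CD4/ALK4-KO. Both CD4/ALK4-KO libraries thus lay below both WT libraries. The mean fell from 3953 ± 56.6 CPM to 2799.5 ± 20.6 CPM (SD, n = 2 each), a ratio of 0.708, while an exact permutation test of 2 against 2 libraries cannot give a two-sided p below 0.333. The large subunit genes summed to 2742 and 2701 CPM in WT and to 1959 and 1893 CPM in CD4/ALK4-KO. The small subunit genes summed to 1251 and 1212 CPM in WT and to 855 and 892 CPM in CD4/ALK4-KO. The ratio of large to small subunit counts was 2.19 and 2.23 in WT and 2.29 and 2.12 in CD4/ALK4-KO, so the genotypes overlapped, and the ratios of CD4/ALK4-KO to WT were 0.708 for the large and 0.709 for the small subunit.

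Gene by gene, 28 of the 78 members (35.9%) passed the threshold of 0.05 on the adjusted p as lower in CD4/ALK4-KO and 0 as higher (edgeR's quasi-likelihood test, adjusted over all genes tested). Of all genes tested, 15.4% were lower and 17.4% higher by the same rule. At an unadjusted p under 0.05, 35 members were lower and 0 higher (edgeR), and the share of all genes at that threshold was not computed. DESeq2's Wald test called 27 members lower (34.6%) and 0 higher, against 14.1% of all genes tested lower. The median log2 fold change of the members, CD4/ALK4-KO minus WT, was -0.45, with the middle 50% between -0.71 and -0.29. The median over all genes was -0.0082, and 73 of the 78 members lay below 0. On a scale set by 4 genes of the T cell receptor complex, where the median over all genes moved to -2.19, the members' median was -2.64 and all 78 were lower, as were 92% of all genes tested. For 63 members (80.8%) both WT libraries were above both CD4/ALK4-KO libraries, which held for 34% of all genes tested. For 2 members, Mrpl10 and Mrpl24, both CD4/ALK4-KO libraries were above, against 32.7% of all genes tested, and for the other 13 the genotypes overlapped.

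**Figure D1:**
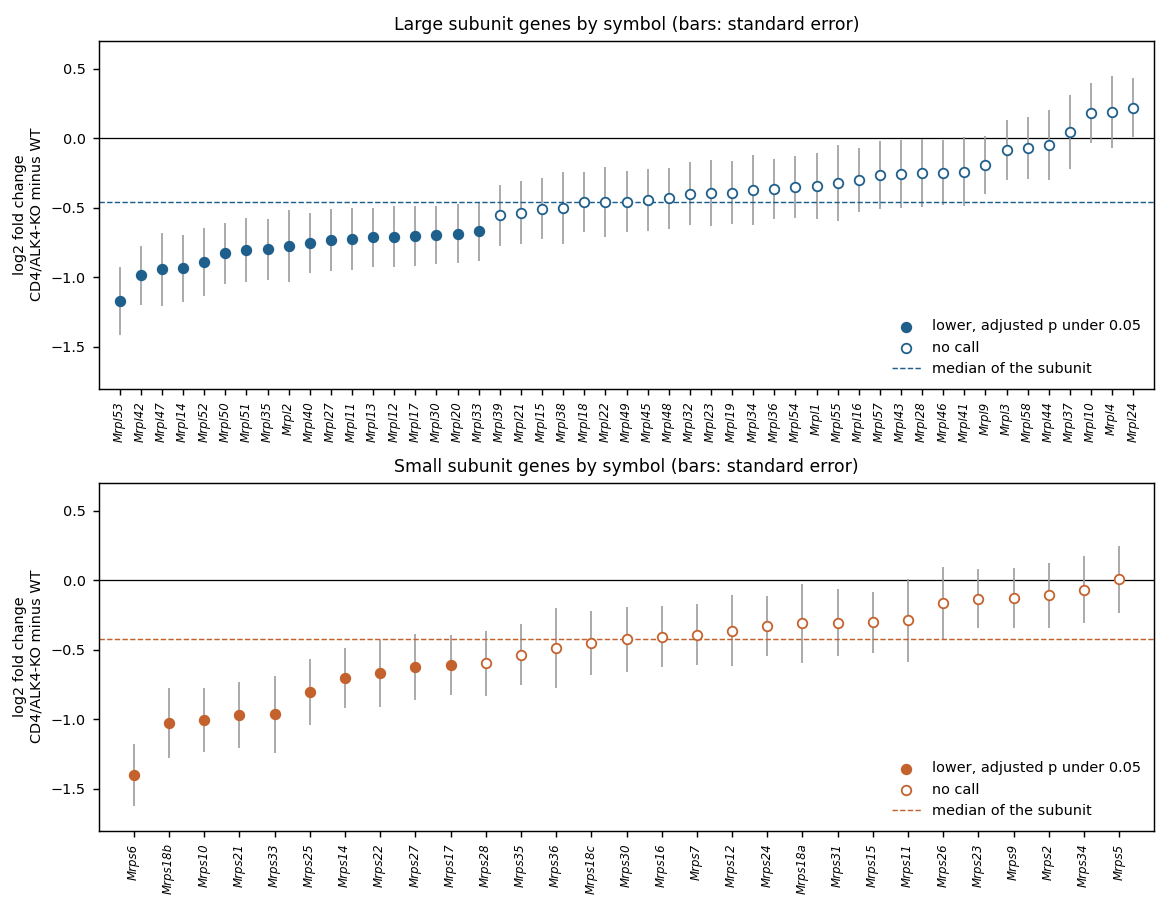
Log2 fold changes (CD4/ALK4-KO minus WT, vertical axis) of the 49 large subunit genes (upper panel) and 29 small subunit genes (lower panel), ordered from the most negative, with bars of 1 standard error. Filled points are the 18 and 10 genes lower at an adjusted p under 0.05, open points did not pass, and the dashed lines are the subunit medians of -0.46 and -0.425.

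The falls were small beside their errors for many members. Only 4 had a log2 fold change below -1 and 34 below -0.5, with standard errors from 0.209 to 0.298. Of the 28 called lower, 3 (Mrps6, Mrpl53 and Mrpl42) were called whichever library was left out. Without WT replicate 1, 4 members (5.13%) were lower, against 5.24% of all genes tested, and without WT replicate 2, 6 members (7.69%), against 7.27%. In these fits, where the lone WT library is assumed to vary like the CD4/ALK4-KO pair, the share of members called was thus near that of all genes. The count was 35 (44.9%, against 17.5% of all genes) when CD4/ALK4-KO replicate 1 was left out and 28 (35.9%, against 18.1%) when replicate 2 was. The members' median was between -0.51 and -0.45 in all 4 fits.

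Members were of moderate level and short transcripts, so they were set beside other protein-coding genes between their 10th and 90th percentiles, 23.6 to 75.1 CPM and 637 to 3100 bp. Of those 2586 genes, 17.2% were lower and 16.4% higher, with a median of -0.056. Their median transcript length was 1710.5 bp, against 1051.5 bp for the members, so length was limited in range and not matched. Genes of other large protein complexes lay near the members. Of 84 cytosolic ribosomal protein genes tested, 28 were lower and 0 higher, with a median of -0.47. Complex I is the first enzyme of the respiratory chain. Of 36 genes with symbols of its nuclear subunits, 17 were lower and 0 higher, with a median of -0.585. With 1 library left out, the median of the cytosolic ribosomal protein genes lay between -0.642 and -0.348. For the complex I genes it lay between -0.726 and -0.476. How many of these genes were called moved with the library left out, as it did for all genes tested. The ratio of the members' counts to those of cytosolic ribosomal proteins was 0.0482 and 0.0491 in WT and 0.0505 and 0.0436 in CD4/ALK4-KO, which overlapped. The ratio to complex I counts was 1.05 and 1.02 in WT and 1.197 and 1.05 in CD4/ALK4-KO.

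**Figure D2:**
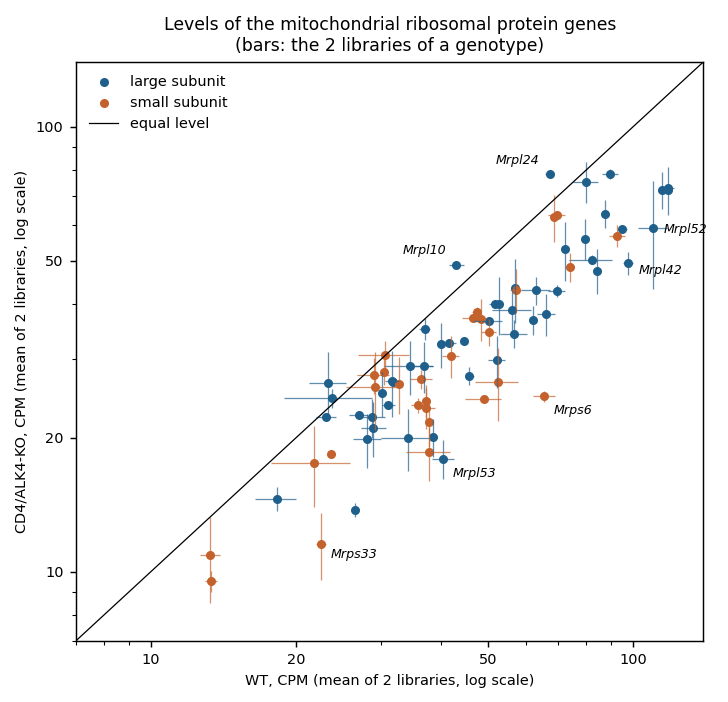
Mean level of each of the 78 genes in WT (horizontal axis) and CD4/ALK4-KO (vertical axis), in CPM on log scales, large subunit genes in blue and small subunit genes in orange, with bars spanning the 2 libraries of a genotype. Most points lie below the line of equal level, Mrps6 and Mrpl53 lie far below it, and Mrpl24 and Mrpl10 lie above it.

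Large subunit genes were lower in 18 of 49 cases, with a median of -0.46, and small subunit genes in 10 of 29, with a median of -0.425. Some symbols do not match the place of the protein in the ribosome. In solved structures the products of Mrps18a and Mrps30 sit in the large subunit, and that of Mrps36 belongs to the oxoglutarate dehydrogenase complex of the citric acid cycle. Sorted by structure, 18 of 51 large subunit and 10 of 26 small subunit genes were lower, with medians of -0.445 and -0.43. Members with a bacterial counterpart were lower in 17 of 45 cases and those without in 11 of 32, with medians of -0.45 and -0.44. The 10 small subunit genes without a bacterial counterpart had a median of -0.58, with 5 lower, and no difference between these classes was tested. Mrps18b was counted among these 10, and Mrps18a among the 32, although both share an ancestor in bacterial S18.

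The levels per kilobase of transcript spread widely within each subunit. Among large subunit genes the highest mean levels were those of Mrpl52, at 203 CPM per kb, Mrpl33, at 196, Mrpl20, at 156, Mrpl30, at 144, and Mrpl42, at 111 CPM per kb. All 5 were lower in CD4/ALK4-KO. Among small subunit genes the highest were Mrps23, at 99.6 CPM per kb, Mrps21, at 97.7, Mrps17, at 71.8, Mrps18c, at 56.8, and Mrps6, at 53.3 CPM per kb. Of these, Mrps21, Mrps17 and Mrps6 were lower, while Mrps23 (log2 fold change -0.13, adjusted p = 0.68, edgeR) and Mrps18c did not pass. The median was 37.5 CPM per kb for large and 26.2 CPM per kb for small subunit genes, against 12.1 CPM per kb for all genes tested. The files give counts per symbol only, so length is the median of the annotated coding transcripts, and a member that uses a longer or shorter isoform is misplaced on this scale.

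Mrps6, a small subunit protein with a bacterial counterpart, fell most. Its level was 68.9 and 61.9 CPM in WT and 24.1 and 25.5 CPM in CD4/ALK4-KO. The libraries of a genotype lay close together and the genotypes were well apart. The fall was -1.40 ± 0.22 on the log2 scale (SE, adjusted p = 4.7e-05, edgeR), a 2.64-fold higher level in WT. On GRCm38 the gene spans chr16:92058270-92112227 on the plus strand and shares exon bases with Slc5a3, the sodium and myo-inositol cotransporter, on the same strand. Slc5a3 itself was at 88.9 and 129 CPM in WT and at 29.7 and 41.5 CPM in CD4/ALK4-KO (-1.61 ± 0.24 on the log2 scale, adjusted p = 2.4e-05, edgeR). Reads from the shared bases cannot be assigned to either gene, so the value of Mrps6 is uncertain to that extent.

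Mrps18b, a small subunit protein of the S18 family, was at 41.8 and 33.8 CPM in WT and at 15.96 and 21.1 CPM in CD4/ALK4-KO (-1.03 ± 0.25 on the log2 scale, adjusted p = 0.0033, edgeR). Mrps10, in the head of the small subunit, was at 53.2 and 44.9 CPM in WT and at 24.4 and 24.5 CPM in CD4/ALK4-KO (-1.01 ± 0.23, adjusted p = 0.0017). The genotypes did not overlap for either gene. Mrps21, another protein of bacterial descent, was at 47.0 and 57.7 CPM in WT and at 21.8 and 31.8 CPM in CD4/ALK4-KO (-0.97 ± 0.24, adjusted p = 0.0035). Mrps33, which has no bacterial counterpart, was at 22.0 and 23.1 CPM in WT and at 9.58 and 13.5 CPM in CD4/ALK4-KO (-0.96 ± 0.28, adjusted p = 0.010). For these 2 genes the CD4/ALK4-KO libraries lay farther apart than for Mrps10, but both remained below both WT libraries.

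Mrpl53 fell most in the large subunit. The protein has no bacterial counterpart, and the gene lies at chr6:83109040-83109939. Its level was 42.5 and 38.4 CPM in WT and 16.1 and 19.8 CPM in CD4/ALK4-KO, with no overlap. On the log2 scale it fell by 1.17 ± 0.24 (adjusted p = 0.00079, edgeR). Its exons overlap those of Gm42688 on the same strand and of Ccdc142os on the opposite strand. Summed over both genes the overlap was 710 bases, and the transcript of Mrpl53 is 695 bp long. A large part of its reads may thus have been left out or shared, and its value is uncertain to that extent.

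Mrpl42, also without a bacterial counterpart, was at 95.3 and 99.9 CPM in WT and at 52.2 and 46.4 CPM in CD4/ALK4-KO (-0.99 ± 0.21, adjusted p = 0.0012, edgeR). Mrpl47 was at 26.2 and 26.8 CPM in WT and at 14.3 and 13.3 CPM in CD4/ALK4-KO (-0.94 ± 0.26, adjusted p = 0.0078). Its exons share 1068 bases with those of Actl6a and Ndufb5 on the opposite strand, so its value is uncertain to that extent. Mrpl14, a bacterial-type protein at the face where the subunits meet, was at 38.2 and 38.6 CPM in WT and at 18.1 and 22.0 CPM in CD4/ALK4-KO (-0.93 ± 0.24, adjusted p = 0.0048). In these 3 genes each genotype kept to a narrow range. Mrpl52 was at 118 and 102 CPM in WT and at 43.1 and 75.6 CPM in CD4/ALK4-KO (-0.89 ± 0.24, adjusted p = 0.0073). Here the CD4/ALK4-KO libraries stood far apart, and the value was -1.36 with only CD4/ALK4-KO replicate 1 kept and -0.51 with only replicate 2 kept.

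**Figure D3:**
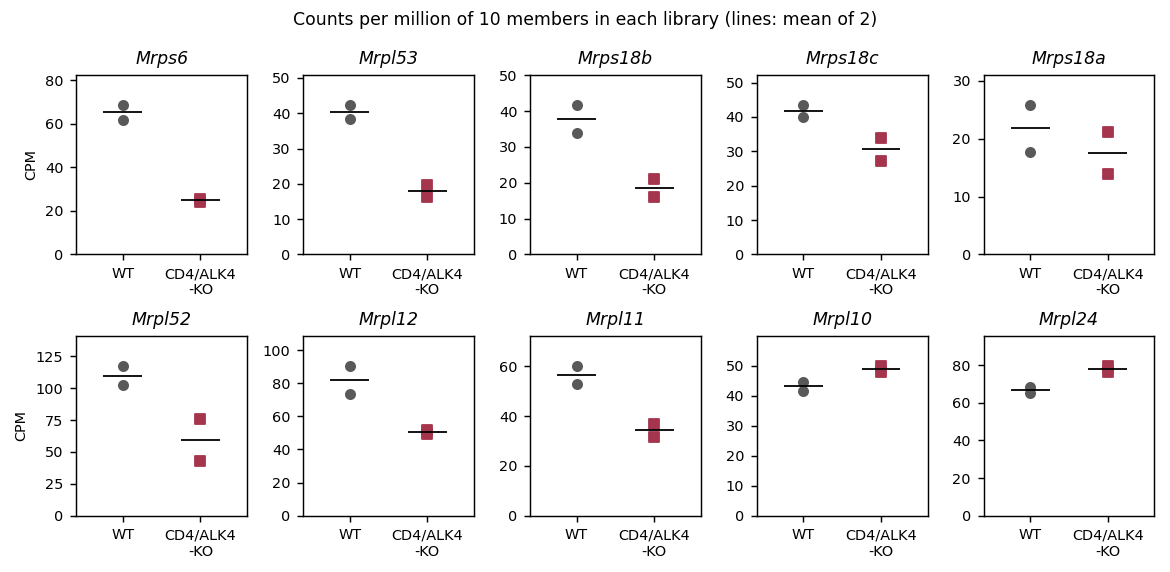
Level in CPM (vertical axes, each from 0) of 10 members in each of the 2 WT libraries (grey circles) and 2 CD4/ALK4-KO libraries (red squares), with lines at the means. The genotypes are apart for Mrps6, Mrpl53, Mrps18b, Mrps18c, Mrpl52, Mrpl12 and Mrpl11, overlap for Mrps18a, and are in the opposite order for Mrpl10 and Mrpl24.

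The stalk of the large subunit recruits the translation factors and is built from the products of Mrpl12 and Mrpl10, with Mrpl11 at its base. Mrpl12, whose product also binds the mitochondrial RNA polymerase, was at 90.5 and 73.7 CPM in WT and at 49.1 and 51.4 CPM in CD4/ALK4-KO (-0.71 ± 0.22, adjusted p = 0.015, edgeR). Mrpl11 was at 53.0 and 60.2 CPM in WT and at 31.8 and 36.8 CPM in CD4/ALK4-KO (-0.72 ± 0.22, adjusted p = 0.015). Mrpl10 was at 44.5 and 41.5 CPM in WT and at 49.9 and 47.8 CPM in CD4/ALK4-KO (0.18 ± 0.22, adjusted p = 0.56). Mrpl12 and Mrpl11 were thus lower, while Mrpl10 passed no threshold and was the 1 stalk gene with both CD4/ALK4-KO libraries above both WT libraries.

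The 3 genes of the S18 family share an ancestor in bacterial S18, whose position is kept by the product of Mrps18c. Besides Mrps18b, described above, Mrps18c was at 43.6 and 40.1 CPM in WT and at 27.3 and 33.9 CPM in CD4/ALK4-KO (-0.45 ± 0.23, adjusted p = 0.13, edgeR). Mrps18a was at 25.9 and 17.7 CPM in WT and at 13.9 and 21.2 CPM in CD4/ALK4-KO (-0.31 ± 0.28, adjusted p = 0.43), with wide and overlapping ranges. Only Mrps18b of the 3 was called lower, a call lost without WT replicate 1 (adjusted p = 0.11), and without CD4/ALK4-KO replicate 2 Mrps18c was called as well (-0.62, adjusted p = 0.041). Differences among the 3 were not tested. The exons of Mrps18b, Mrps18c and Mrpl10 overlap those of the predicted genes Gm16279, Gm43511 and Gm11574, so their counts are uncertain to that extent. Mrps30, the other large subunit protein under a small subunit symbol, was at 38.2 and 34.4 CPM against 25.7 and 28.4 CPM (-0.42 ± 0.23, adjusted p = 0.17). Mrps36, of the oxoglutarate dehydrogenase complex, was at 13.7 and 12.9 CPM against 8.99 and 10.04 CPM (-0.49 ± 0.29, adjusted p = 0.21), and 3 pseudogenes named after it are annotated that could take some of its reads.

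Several members lay near 0. In the large subunit the nearest were Mrpl37 (0.045), Mrpl44 (-0.047), Mrpl58 (-0.072), Mrpl3 (-0.086) and Mrpl10 (0.18). Mrpl58, a peptidyl-tRNA hydrolase that frees stalled ribosomes, was at 37.9 and 36.0 CPM in WT and at 33.2 and 37.2 CPM in CD4/ALK4-KO (adjusted p = 0.84, edgeR). Mrpl3, near the catalytic centre, was at 75.0 and 84.6 CPM in WT and at 83.2 and 67.3 CPM in CD4/ALK4-KO, so the genotypes overlapped. In the small subunit the nearest were Mrps5 (0.0052), Mrps34 (-0.068), Mrps2 (-0.11), Mrps9 (-0.13) and Mrps23 (-0.13). The standard errors of these 10 genes were 0.21 to 0.26 on the log2 scale, so the absence of a call does not show that their levels were equal.

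Members were then compared with their own set, on library sizes given by the summed counts of the 78 genes. On that scale, which moved the median over all genes to 0.49, 2 members were lower, against 4.71% of all genes tested, and 3 were higher, against 38.1% of all genes tested. Adjustment ran over all genes tested, of which 5306 were higher on this scale and 2422 on the usual one. That shift loosens the threshold for the members, which were not adjusted among themselves, so these calls rest partly on it. Mrps6 was lower by more than the set, at -0.90 ± 0.22 on the log2 scale (adjusted p = 0.0023, edgeR), and so was Mrpl53 (-0.67 ± 0.24, adjusted p = 0.031). Mrpl24 (0.72, adjusted p = 0.0092), Mrpl4 (0.69, adjusted p = 0.036) and Mrpl10 (0.68, adjusted p = 0.015) were higher relative to the set. Mrpl24 and Mrpl4 were chosen for mention after their values were seen. On the usual scale Mrpl24, at chr3:87919506-87923672, was at 65.5 and 68.7 CPM in WT and at 79.7 and 76.6 CPM in CD4/ALK4-KO (0.22 ± 0.21, adjusted p = 0.46), and Mrpl4 at 25.4 and 21.3 CPM against 21.9 and 31.2 CPM (0.19 ± 0.26, adjusted p = 0.63). The exons of Mrpl24 overlap those of Rrnad1 on the opposite strand, and the library kit does not mark strand.

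Promoters were examined because the members moved largely together. RefSeq windows on GRCm38.p6, from 250 bases before to 50 after the start, were given for 69 of the 78 members, and 5 short motifs were searched on both strands. CCGGAAG, bound by ETS family factors, was in 36.2% of the members' windows, against 17.5% of those of tested protein-coding genes and 9.12% of all 27025 windows. GCGCATGC, the core bound by nuclear respiratory factor NRF1, was in 11.6% of the members' windows, against 5.21% and 2.80%. AAGATGGCG, bound by YY1, was in 11.6%, against 3.10% and 1.49%. CACGTG, the E-box of MYC and related factors, was in 7.25%, against 9.92% and 7.24%, and TATAAA was in 5.80%, against 7.55% and 14.2%. Among members called lower, 11 of 27 windows held the ETS motif (40.7%), and among those not called 14 of 42 (33.3%), and for the NRF1 core the shares were 11.1% and 11.9%. These are matches of letters and not sites of binding. The transcript of Myc fell, from 157 and 125 CPM to 47.2 and 74.8 CPM (-1.21 ± 0.24 on the log2 scale, adjusted p = 0.00045, edgeR).

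Printed here are the windows of the members called lower or higher than the set, without Mrpl4, for which no window was given. They are in lower case, with matches to these motifs, on either strand, in capitals. Mrps6 (chr16:92058086-92058385) and Mrpl53 (chr6:83108858-83109157), both on the plus strand, fell more than the set, and Mrpl10 (chr11:97041332-97041631) and Mrpl24 (chr3:87919294-87919593), also on the plus strand, lay above it.
Mrps6: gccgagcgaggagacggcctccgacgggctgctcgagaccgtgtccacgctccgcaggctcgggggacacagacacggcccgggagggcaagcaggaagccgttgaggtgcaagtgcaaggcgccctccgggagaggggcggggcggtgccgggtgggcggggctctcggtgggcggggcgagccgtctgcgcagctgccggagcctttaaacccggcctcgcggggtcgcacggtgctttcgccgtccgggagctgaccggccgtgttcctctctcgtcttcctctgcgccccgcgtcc
Mrpl53: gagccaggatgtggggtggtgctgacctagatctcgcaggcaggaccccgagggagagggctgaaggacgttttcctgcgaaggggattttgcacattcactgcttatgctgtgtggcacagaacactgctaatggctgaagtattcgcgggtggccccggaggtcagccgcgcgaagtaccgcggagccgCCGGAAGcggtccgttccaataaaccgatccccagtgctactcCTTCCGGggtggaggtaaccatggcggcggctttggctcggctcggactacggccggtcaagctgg
Mrpl10: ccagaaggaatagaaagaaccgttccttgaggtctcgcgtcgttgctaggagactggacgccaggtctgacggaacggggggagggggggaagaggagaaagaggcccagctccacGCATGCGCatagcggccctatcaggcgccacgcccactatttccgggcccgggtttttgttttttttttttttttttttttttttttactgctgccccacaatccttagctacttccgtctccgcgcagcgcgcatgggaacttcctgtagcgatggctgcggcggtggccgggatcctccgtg
Mrpl24: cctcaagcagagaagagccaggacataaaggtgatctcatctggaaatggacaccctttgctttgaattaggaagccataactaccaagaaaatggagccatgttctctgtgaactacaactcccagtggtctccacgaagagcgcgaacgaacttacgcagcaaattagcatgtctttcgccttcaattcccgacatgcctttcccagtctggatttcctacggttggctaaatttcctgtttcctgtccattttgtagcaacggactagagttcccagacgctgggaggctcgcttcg
The window of Mrpl53 held the ETS motif starting 59 and 16 bases before the start, and that of Mrpl10 held the NRF1 core 134 bases before it. The windows of Mrps6 and Mrpl24 held none of the 5 motifs, as did those of 29 members in all. The window of Mrps6 had a GC content of 73.7%, against a median of 58.3% over the members, and that of Mrpl24 had 48.3%.

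The other genes of mitochondrial translation were read from lists of its steps. Of 5 mitochondrial ribosomal proteins with other names, 3 were lower and 0 higher, with a median of -0.63 that was -0.41 without CD4/ALK4-KO replicate 2. Gadd45gip1, a large subunit protein at the exit of the peptide tunnel, was at 41.2 and 35.1 CPM in WT and at 19.4 and 22.0 CPM in CD4/ALK4-KO (-0.88 ± 0.24, adjusted p = 0.0071, edgeR). Ptcd3, a pentatricopeptide repeat protein of the small subunit, was at 127 and 130 CPM in WT and at 96.8 and 69.3 CPM in CD4/ALK4-KO (-0.63 ± 0.22, adjusted p = 0.031). The remaining gene called lower was Chchd1 (-0.79). Dap3, a GTP-binding small subunit protein (-0.30, adjusted p = 0.27), and Aurkaip1 (-0.33, adjusted p = 0.24) did not pass. The call of Ptcd3 was lost without either WT library and without CD4/ALK4-KO replicate 2, that of Chchd1 without either WT library, and that of Gadd45gip1 without WT replicate 1.

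Genes that build, feed and start the ribosome were mostly not called, while 15.4% of all genes tested were lower and 17.4% higher. The median levels of these lists were 16.9 to 23.4 CPM and their median transcript lengths 1517.5 to 2013.5 bp. Those of the members were 36.9 CPM and 1051.5 bp, and the part of level and length in this contrast was not tested. Of 26 genes for assembly and rRNA modification, 0 were lower and 1 was higher, with a median of -0.20 that was -0.091 without CD4/ALK4-KO replicate 2 and -0.13 without replicate 1. That gene was Mettl17, a factor needed for small subunit assembly, at 10.6 and 9.54 CPM in WT and 26.5 and 24.4 CPM in CD4/ALK4-KO (1.34 ± 0.27, adjusted p = 6e-04, edgeR), and it was called whichever library was left out. The most abundant of the list, Dhx30 (0.22), Mterf3 (-0.082) and Fastkd2 (-0.46), did not pass. Of 16 translation factors, 0 were lower and 0 higher, with a median of 0.029 that turned to -0.039 under upper quartile scaling and lay between -0.076 and 0.013 with 1 library left out. They included the elongation factor Gfm1 (-0.21), the initiation factor Mtif2 (0.065) and the membrane insertase Oxa1l (0.30). Of 20 aminoacyl-tRNA synthetase and tRNA amidation genes, 1 was lower and 0 higher, with a median of 0.10 that was -0.075 without CD4/ALK4-KO replicate 2 and -0.0087 without WT replicate 2. Yars2, which charges the tyrosine tRNA, was the gene called, at 33.4 and 25.5 CPM in WT and 14.3 and 15.6 CPM in CD4/ALK4-KO (-0.98 ± 0.26, adjusted p = 0.0064), a call lost without WT replicate 1. Lars2 (0.18), Iars2 (-0.087) and Rars2 (-0.41), the most abundant, did not pass. How many genes of these lists were called also moved with the library left out.

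Of 21 genes that maintain mitochondrial DNA and RNA, 4 were lower and 1 higher, with a median of -0.37 that lay between -0.285 and -0.24 with 1 library left out. Without either WT library, 1 was lower and 0 higher. Slirp, which with Lrpprc stabilises mitochondrial mRNAs, had the largest fall of the lists of mitochondrial translation, from 64.9 and 71.0 CPM in WT to 11.2 and 23.5 CPM in CD4/ALK4-KO. The CD4/ALK4-KO libraries differed from each other but lay far below WT, at -1.97 ± 0.28 on the log2 scale (adjusted p = 1.7e-05, edgeR). Its partner Lrpprc was at -0.37 and did not pass (adjusted p = 0.20). Hsd17b10 (-0.58, adjusted p = 0.038) and Prorp (-0.83, adjusted p = 0.024), subunits of the mitochondrial RNase P, and Ssbp1 (-0.70, adjusted p = 0.016), which coats single-stranded mitochondrial DNA, were lower. Polg2, the accessory subunit of the mitochondrial DNA polymerase, was higher (0.99, adjusted p = 0.017), and Pnpt1, an RNA-degrading enzyme, did not pass (-0.52, adjusted p = 0.070). Of these 5 called genes, Slirp alone was called whichever library was left out.

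**Figure D4:**
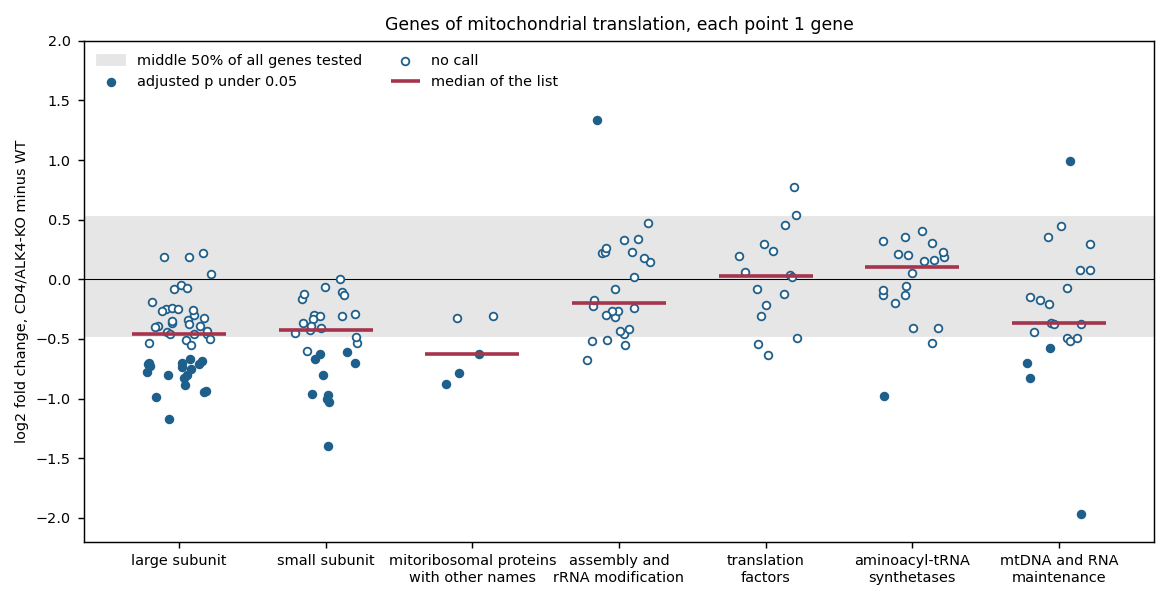
Log2 fold changes (CD4/ALK4-KO minus WT, vertical axis) of the members by subunit and of 5 further lists of mitochondrial translation, each point 1 gene, filled where the adjusted p was under 0.05, with red lines at the list medians and a grey band for the middle 50% of all genes tested. The medians of both subunits (-0.46 and -0.425) and of the proteins with other names (-0.63) lie lowest, those of translation factors (0.029) and synthetases (0.10) lie near 0, and Slirp is the lowest point.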

How the data were processed

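Gene counts of 4 RNA-Seq libraries were grouped by the genotype in the labels. Libraries were made with a TruSeq RNA v2 kit, which does not mark strand, and sequenced as 75 bp single-end reads. The authors used HISAT2 for alignment to mm10 and htseq-count, in intersection-nonempty mode, for counting. The deposited values are raw counts, 1 per gene symbol and library, that were not normalized. The versions of these tools, the annotation and the strand option are not given in the sources used here. Reads shared by overlapping genes could be lost or assigned to the wrong gene, and 23 members share exon bases with another protein-coding gene. Among named genes not marked above, these include Mrpl14, Mrpl44 and Mrps34, and the exons of Mrpl33 overlap those of the predicted gene Gm43809.

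Genes were filtered with filterByExpr, scaled by TMM and tested with the robust quasi-likelihood fit of edgeR 4.0.16 in R 4.3.3, with genotype as the only term and Benjamini-Hochberg adjustment over 13919 genes. The deposited counts were used as they are, and the method was tested on simulated data. The study used DESeq2, which is an alternative here (version 1.42.0). Standard errors were derived from the log2 fold change and the root of its F statistic. CPM use the TMM-adjusted library sizes, and CPM per kb divide by the median length of coding transcripts in GENCODE M21 (GRCm38, the build named mm10), which matched all 78 members. Promoter windows came from RefSeq and motif matches were exact.

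Replicates were counted separately, since their counts differed beyond sampling noise (chi-square per degree of freedom 13.3 in WT, 24 in CD4/ALK4-KO). The members, lists, motifs and the rule for named genes were chosen with earlier results of these data known. The rule took, in each subunit, the 5 highest members per kb, the 5 largest falls called lower averaging 50 counts or more without overlap of the genotypes, the 5 members without a call nearest 0, the stalk and S18 genes, Mrps30, Mrps36 and Mrpl58, and, of each other list, the 3 most abundant genes and the largest called change each way. Other genes called in lists with few calls were named after their values were seen. The alternatives were other scalings (DESeq2's size factors, upper quartile, genes of the T cell receptor complex, the members' own sum, total counts), no count filter, a stricter filter of 10 counts per library, a block for the replicate number, the Wald test of DESeq2, the likelihood ratio test of edgeR, subunits by structure, and each library left out.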

Additional observations from a re-analysis of the deposited data

How the results depend on the processing

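With 2 libraries per genotype, members' log2 fold changes had standard errors of 0.209 to 0.298, so most falls of the size of the median could not be called singly. The count of members lower was 27 or 28 with DESeq2's size factors, DESeq2's Wald test, the likelihood ratio test and either other filter. With these, 11.8% to 16.3% of all genes tested were lower. Upper quartile scaling gave 33 members lower (42.3%, against 17.4% of all genes) and moved the median to -0.518. Scaling to 4 T cell receptor complex genes gave 78 members lower (49 large, 29 small), a median of -2.64, and 12803 genes lower and 48 higher in all, with the median over all genes at -2.19. Scaling to the members' own sum gave 2 lower (1 large, 1 small) and 3 higher, a median of 0.0486, and 656 genes lower and 5306 higher in all. That scale is set by the members, so their median lies near 0 by construction. With total counts as library size, the members summed to 3870 CPM in WT and 2850 CPM in CD4/ALK4-KO, and the large subunit to 2660 CPM in WT.

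Leaving out 1 library gave 4 to 35 members lower (2 to 24 large, 2 to 11 small), a median from -0.506 to -0.45, and in all genes 754 to 2618 lower and 1103 to 2923 higher. The low ends came without WT replicate 1 and the counts without WT replicate 2 were 6 members, 1047 genes lower and 1344 genes higher. The cause was not tested.

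Replicate numbers did not pair the samples, with a correlation of replicate deviations of -0.214 over all genes tested and -0.396 over the members. With the replicate number as a block, 14 members (17.9%) were lower (9 large, 5 small) and 0 higher, against 10.4% of all genes lower. With the pairing crossed, an alternative added after the data were seen, 39 members were lower and 0 higher, against 3037 of all genes lower.

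Signs changed with the scaling, which shifts every gene. On the members' own scale 39 members turned positive, among them the named genes Mrpl44 (0.451), Mrpl58 (0.427), Mrpl3 (0.411), Mrps23 (0.364), Mrps18c (0.0453), Mrps34 (0.432), Mrps2 (0.388), Mrps9 (0.369), Mrps18a (0.190), Mrps30 (0.0738) and Mrps36 (0.0128). On the T cell receptor scale all 5 members above 0 turned negative, Mrpl37 (-2.13), Mrpl10 (-2), Mrps5 (-2.18), Mrpl4 (-1.98) and Mrpl24 (-1.97), as Mrpl37 (-0.026) and Mrps5 (-0.0667) did under upper quartile scaling. With 1 library left out, the values of 10 members lay on both sides of 0, from -0.234 to 0.372 for Mrpl37, -0.123 to 0.0162 for Mrpl44, -0.162 to 0.0387 for Mrpl58, -0.215 to 0.0536 for Mrpl3, -0.169 to 0.186 for Mrps5, -0.213 to 0.0899 for Mrps34, -0.284 to 0.0333 for Mrps9, -0.096 to 0.448 for Mrpl4, -0.652 to 0.03 for Mrps11 and -0.491 to 0.127 for Mrps26.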

Other observations

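A neighbour was a protein-coding gene on the opposite strand that started within 1000 bp upstream of the member, or slightly inside it. Pairs whose starts overlap further, such as Mrpl46 and Mrps11, were not counted. Such a neighbour was found for 19 of the 78 members (24.4%), against 1360 of 13174 protein-coding genes tested (10.3%). Of these neighbours 18 were tested, and 3 were lower, 2 higher and 13 not called in CD4/ALK4-KO (median 0.14 on the log2 scale). Over all genes tested, 15.4% were lower and 17.4% higher. Of the 19 members, 7 were lower, beside 28 of all 78. The counts were thus near these shares and show nothing particular to such pairs. Mrpl50 (-0.83) was lower together with its neighbour Zfp189 (-0.89, adjusted p = 0.020, edgeR), a zinc finger protein. Mrpl36 (-0.37) and Mrpl57 (-0.26) did not pass, while their neighbours Ndufs6, a complex I subunit (-0.86, adjusted p = 0.0076), and Ska3, a kinetochore protein (-1.13, adjusted p = 0.0039), were lower. The neighbours of Mrpl37 and Mrpl41, Cyb5rl (1.10, adjusted p = 0.045) and Pnpla7 (1.204, adjusted p = 0.00027), were higher. Mrps12 (-0.36, adjusted p = 0.29) is paired in this way with Sars2, the mitochondrial seryl-tRNA synthetase (0.16, adjusted p = 0.78).

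The members' libraries were more alike within WT than within CD4/ALK4-KO. Over the 78 members, the log2 difference of replicate 1 minus replicate 2 had an SD of 0.172 in WT and 0.308 in CD4/ALK4-KO. It exceeded 0.5 in size for 2 members in WT and 6 in CD4/ALK4-KO, and the share of all genes beyond 0.5 was not computed. The counts of all genes also differed less between the WT libraries than between the CD4/ALK4-KO libraries (chi-square per degree of freedom 13.3 and 24). The difference was thus not particular to the members.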
